A study of Mus musculus with 18 samples.

Results

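The ephrins and their Eph receptors were followed through 10 genes, taken by name out of the 24498 gene rows of the deposited table: the receptors Epha1, Epha2, Epha4, Epha7, Ephb2 and Ephb3 and the ligands Efna1, Efna5, Efnb1 and Efnb2. All 10 passed the filter on low values, and each had at least 36 reads in every library. The libraries came from mouse embryos at embryonic day 7.5, late in gastrulation, and were sorted by the fluorescence of FoxA2, a forkhead pioneer factor of the node, notochord and endoderm. High cells were brighter than any heterozygous cell, Mid cells lay between autofluorescence and the heterozygous maximum, and Neg cells gave no signal. Every embryo, WT or mutant, carried FoxA2 fused to tagRFP on both alleles. The mutant, ΔHx, also lacked 10 amino acids of an α-helix of FoxA2, so the WT groups are tagged controls and not unmodified embryos. Each of the 6 groups had 3 replicates, which the labels call biological, and 18 libraries were made in all. A library started from about 10 pooled embryos of a mixed C57Bl6/J and CD-1 background that were not sexed, with the extra-embryonic part taken for genotyping, and held RNA equal to 1000 cells. The gates were set on the reporter alone, so each holds a mixture of cell types, and in such samples fewer cells of a type and less RNA per cell cannot be told apart.

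Eph receptors are the largest family of receptor tyrosine kinases. Their ligands are membrane-bound: A-type ephrins hang on a lipid anchor and mainly bind EphA receptors, and B-type ephrins span the membrane and mainly bind EphB receptors, with Epha4 known to bind both types. Contact between a cell with the receptor and a cell with the ligand signals into both cells and commonly ends in repulsion or a boundary, and in the early embryo the family is known for sorting cells of different germ layers and for somite borders.

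The libraries held 12302196 to 17194136 reads in genes, with a median of 15569191.5, and the multicopy ribosomal transcript Rn45s took 23.7% to 44.0% of them. Foxa2, the sorted gene, had WT means of 1927 ± 490 (SD, n = 3) in High, 768 ± 131 in Mid, 28.2 ± 10.9 in Neg, and 2104 ± 269, 796 ± 377 and 53.6 ± 9.65 in the same gates of ΔHx, in read counts per library size factor. All values below are in that unit unless stated, and ± is the SD over 3 libraries. Summed over 8 node and notochord genes, which include Shh and Noto, the WT High libraries held 25352 to 39842, while WT Neg ranged from 1708 to 3395. For 8 definitive endoderm genes, WT High held 35521 to 40743, WT Mid 17312 to 21864 and WT Neg 2672 to 2984. Their defining gene Sox17 had a mean of 1582 ± 194 in WT High and 1880 ± 176 in WT Mid. WT Mid led for 10 visceral endoderm genes (37747 to 46277, with WT High at 3244 to 8244). For 9 nascent and paraxial mesoderm genes WT Mid (8639 to 12420) was just above WT Neg (6845 to 8293), with WT High at 2904 to 4185. Of the defining genes of that list, Mesp1 had means of 810 in WT Mid and 916 in WT Neg, and Tbx6 865 and 712. WT Neg led for 7 epiblast genes (18581 to 22039, with WT High at 6296 to 8304). Tal1, a blood marker, had a mean of 0.910 in WT High and 220 in WT Neg. Summed over 7 neural ectoderm genes, WT High was the highest (2209 to 2358), above WT Mid (1006 to 1456) and WT Neg (873 to 1080), although its defining gene Sox1 was near 0, with a mean of 0.400 in WT High and 10.4 in WT Neg. 1 library stood apart: WT Mid replicate 1 had a sum of 254503 over 11 parietal endoderm genes, against 42401 and 66591 in the other WT Mid libraries and 17361 to 24191 in ΔHx Mid. Results that involve WT Mid are therefore also given without it where a call changed. The part of these cell types in the results below was not tested.

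Between WT High and WT Neg cells, 7 of the 10 genes passed the test (limma, Benjamini-Hochberg adjusted p below 0.05 over 14711 genes), where 44.4% of all genes tested did. 5 rose towards High (22.6% of all genes) and 2 fell (21.8%). Epha2 and Efna1, a receptor and its prototypic A-type ligand, had the largest changes, in opposite directions. The median change of the 10 genes was 0.40 on the log2 scale, against 0.02 over all genes tested, and the median of the absolute changes was 0.92 against 0.50. The 10 genes were chosen with earlier results of these data known, so these counts and medians describe the list and do not test it. In ΔHx, 6 of the 10 passed between High and Neg (42.6% of all genes), 4 rising (21.5%) and 2 falling (21.1%). These 6 genes were also called in WT, with the same sign.

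Epha2 (chromosome 4, 141301240 to 141329384, plus strand, mm10), a receptor known from the node and the anterior mesendoderm, read 1500, 1594 and 1341 in the WT High libraries, 1073, 1052 and 594 in WT Mid, then 185, 243 and 266 in WT Neg. In ΔHx it read 1390, 1506 and 2018 in High, 596, 590 and 944 in Mid, then 279, 203 and 237 in Neg. No library of any gate overlapped another gate of the same genotype, and the order was High, Mid, Neg in both. The WT High mean was 6.42-fold the WT Neg mean on the log2(value + 1) scale (log2 2.68, SE 0.22, adjusted p 1.28e-08), and the ΔHx value was 6.77-fold (log2 2.76, adjusted p 1.20e-08). WT Mid was above WT Neg by 1.93 on the log2 scale (adjusted p 2.27e-06) and ΔHx Mid above ΔHx Neg by 1.54 (adjusted p 3.47e-05). High was above Mid by 0.75 in WT (adjusted p 0.0175) and by 1.22 in ΔHx (adjusted p 0.000441). The WT difference between High and Mid rested in part on WT Mid replicate 3, the library at 594. Without it the difference was 0.47 and the adjusted p 0.109, and the call was also lost without WT High replicate 1 or 2.

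Efna1 (chromosome 3, 89271733 to 89281142, minus strand), a lipid-anchored ligand of Epha2, ran the other way. Its WT libraries read 43.2, 53.7 and 69.1 in High, 103, 150 and 153 in Mid, then 367, 313 and 348 in Neg, and its ΔHx libraries 57.0, 46.2 and 67.6, then 127, 131 and 109, then 428, 342 and 305. The 3 gates did not overlap in either genotype, and Neg was the highest. Neg exceeded High by 6.20-fold in WT (log2 of High against Neg -2.63, SE 0.23, adjusted p 2.15e-08) and again by 6.20-fold in ΔHx (adjusted p 2.85e-08). Mid was below Neg by a log2 difference of -1.36 in WT (adjusted p 0.000150) and -1.53 in ΔHx (adjusted p 4.55e-05), and High was below Mid by -1.28 (adjusted p 0.000358) and -1.10 (adjusted p 0.00130).

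Ephb3 (chromosome 16, 21204755 to 21223305, plus strand), a receptor for B-type ephrins, followed the order of Epha2. WT High libraries read 1294, 1098 and 1124, WT Mid 841, 457 and 507, and WT Neg 418, 357 and 417. ΔHx High read 1108, 1142 and 1360, ΔHx Mid 447, 408 and 578, and ΔHx Neg 336, 386 and 285. The High libraries lay above all others of their genotype, while Mid and Neg came close to each other without overlap. High was 2.95-fold Neg in WT (log2 1.56, SE 0.19, adjusted p 1.63e-06) and 3.59-fold in ΔHx (log2 1.84, adjusted p 2.26e-07), and it was above Mid by 1.01 in WT (adjusted p 0.000520) and 1.34 in ΔHx (adjusted p 3.13e-05). The step from Neg to Mid was smaller, 0.55 in WT (adjusted p 0.030) and 0.50 in ΔHx (adjusted p 0.0444). The WT call was lost without the parietal-rich WT Mid replicate 1 (log2 0.28, adjusted p 0.215) and without WT Neg replicate 2 or 3, and the ΔHx call was lost without any of 4 of its 6 libraries (adjusted p up to 0.204).

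**Figure D1:**
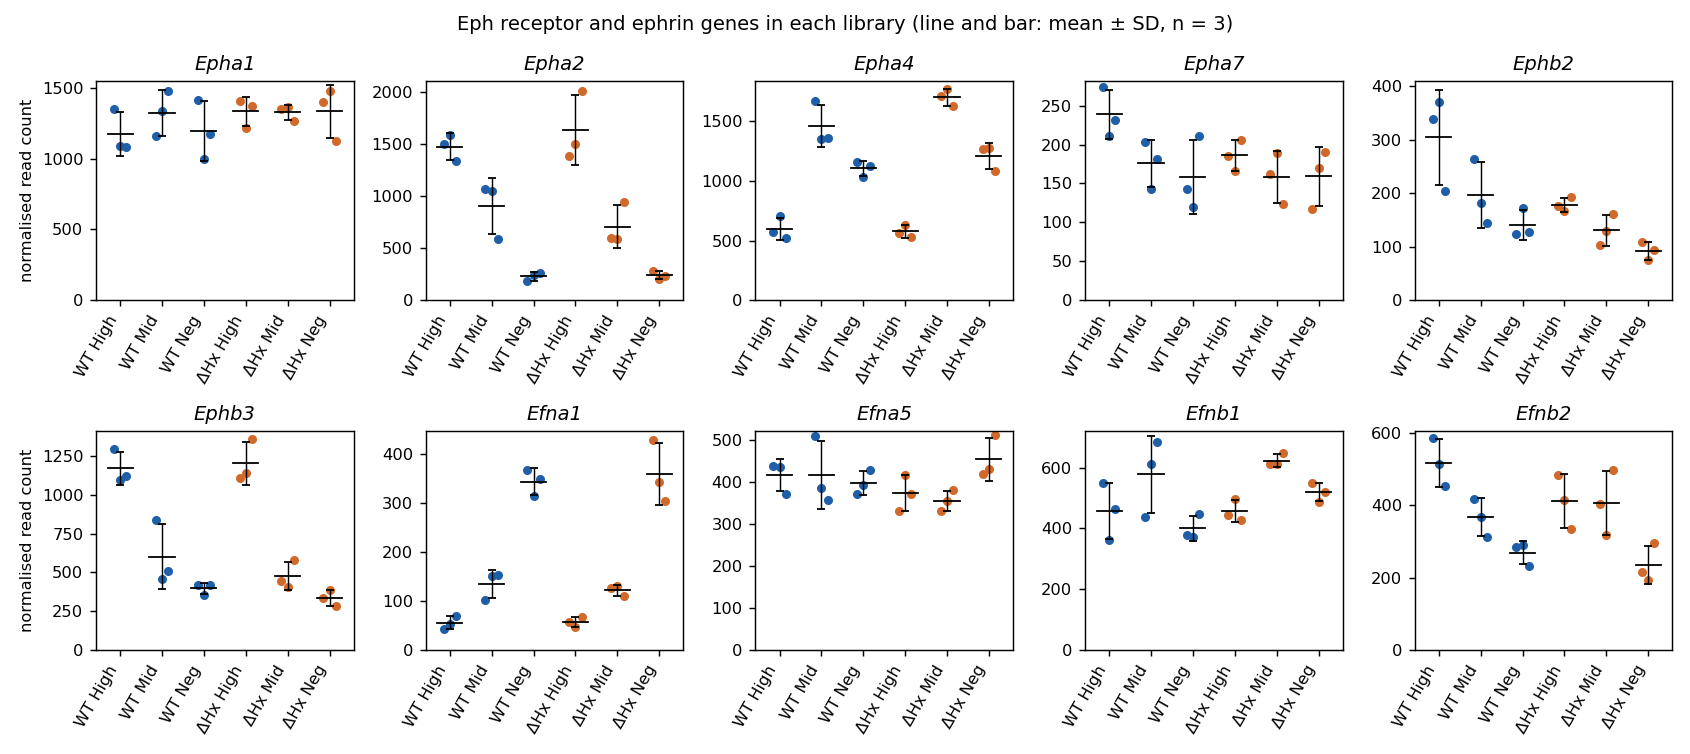
Value of each of the 10 genes in each of the 18 libraries, in read counts per library size factor on axes that start at 0, with the 6 groups along the horizontal axis, WT in blue and ΔHx in orange, and a line with error bars at each mean ± SD (n = 3). Epha2 and Ephb3 stepped down from High to Neg, Efna1 stepped up from 55.3 to 343 in WT, and Epha4 was highest in Mid.

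The start regions of these 3 genes, which changed most between High and Neg, are shown because the genes moved together with or against the FoxA2 gate. Each is the 250 bases before the transcription start from RefSeq (GRCm38.p6), 5′ to 3′ on the gene's strand. Epha2 is from chr4:141300971-141301220 (plus strand), Ephb3 from chr16:21204545-21204794 (plus strand) and Efna1 from chr3:89280952-89281201 (minus strand, the first of its 2 promoters). Capitals mark a match to a T-box word.
Epha2: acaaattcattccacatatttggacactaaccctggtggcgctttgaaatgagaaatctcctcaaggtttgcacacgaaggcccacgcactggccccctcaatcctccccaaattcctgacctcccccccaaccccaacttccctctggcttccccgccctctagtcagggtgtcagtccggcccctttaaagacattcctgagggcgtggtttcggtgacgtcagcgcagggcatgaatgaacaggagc
Ephb3: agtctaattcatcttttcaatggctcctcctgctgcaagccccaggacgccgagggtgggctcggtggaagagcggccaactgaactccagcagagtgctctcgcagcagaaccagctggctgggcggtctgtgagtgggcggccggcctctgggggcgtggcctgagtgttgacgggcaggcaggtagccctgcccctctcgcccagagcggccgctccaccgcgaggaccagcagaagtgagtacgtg
Efna1: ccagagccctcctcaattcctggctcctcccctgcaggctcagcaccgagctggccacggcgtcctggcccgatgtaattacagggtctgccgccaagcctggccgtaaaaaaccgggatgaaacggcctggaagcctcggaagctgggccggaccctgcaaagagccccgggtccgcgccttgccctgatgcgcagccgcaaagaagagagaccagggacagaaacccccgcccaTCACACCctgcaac
The letters TGTTTAC and TGTTTGC, 2 forms of the core that forkhead factors bind, and GGTGTGA, the core bound by T-box factors, were searched on both strands from 250 bases before to 50 after each start. The 2 forkhead forms cannot match at the same position. TGTTTAC was found in 3.65%, TGTTTGC in 5.07% and GGTGTGA in 3.98% of 32851 promoters. All 10 genes matched the RefSeq table, with 12 promoters. TGTTTGC occurred in 1 of the 12, the second Epha7 promoter, on the opposite strand at base 41 after the start. GGTGTGA occurred in 1, the first Efna1 promoter, on the opposite strand from base -14, and not in the second Efna1 promoter. The 3 sequences had a GC content of 55.6%, 65.6% and 64.8% and held 9, 16 and 16 CpG dinucleotides in the order printed. All 12 promoters were above the median GC content of 52.7%, from 54.7% to 73.3%.

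Epha4 (chromosome 1, 77367185 to 77515088, minus strand), the receptor that binds both classes of ephrin, peaked in Mid. WT libraries read 569, 703 and 518 in High, 1662, 1352 and 1356 in Mid, then 1155, 1034 and 1126 in Neg. ΔHx libraries read 565, 631 and 530, then 1705, 1766 and 1625, then 1265, 1276 and 1079. High was lowest and Mid highest, with no overlap in either genotype. High was below Neg by -0.90 on the log2 scale in WT (SE 0.12, adjusted p 5.48e-06) and by -1.07 in ΔHx (adjusted p 7.39e-07), and below Mid by -1.29 (adjusted p 3.78e-07) and -1.56 (adjusted p 3.30e-08). Mid was above Neg by 0.39 in WT (adjusted p 0.0159) and by 0.50 in ΔHx (adjusted p 0.00338). The WT difference of Mid from Neg was not called without WT Mid replicate 1 (log2 0.29, adjusted p 0.0911) or WT Neg replicate 2 (adjusted p 0.0695).

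Over all 10 genes, 5 passed between Mid and Neg in WT (32.9% of all genes), 4 rising (17.4%) and 1 falling (15.4%), and 5 passed in ΔHx (34.3%), again 4 rising (17.9%) and 1 falling (16.5%). Epha2, Epha4, Ephb3 and Efna1 were called in both genotypes with the same sign. Efnb1 was added in WT and Efnb2 in ΔHx, a difference between genotypes that the interaction test did not call. Without WT Mid replicate 1, 3 of the 10 were called in WT. Between High and Mid, 4 passed in WT (24.4% of all genes), 2 in each direction (12.1% rising, 12.4% falling), and 5 in ΔHx (25.6%), 2 rising (13.3%) and 3 falling (12.3%). The same 4 genes were called in both, and Efnb1 was added in ΔHx. Without WT Mid replicate 1, Ephb2 (log2 0.86, adjusted p 0.0290) and Efnb1 (log2 -0.52, adjusted p 0.0199) were also called between WT High and Mid.

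**Figure D2:**
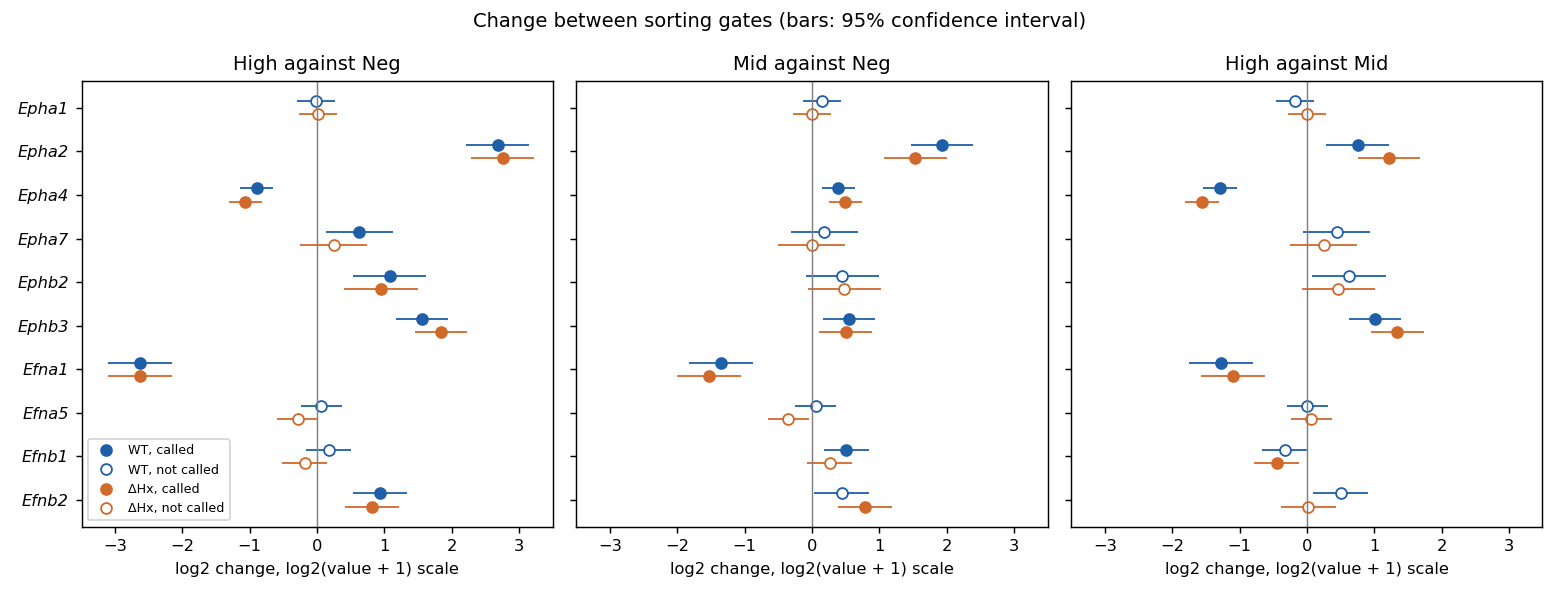
Log2 difference between gates for each of the 10 genes, with 95% confidence intervals from limma, in WT and ΔHx. Epha2 and Efna1 sat at opposite ends between High and Neg, at 2.68 and -2.63 in WT.

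Among the B-class genes with smaller changes, Efnb2 (chromosome 8, 8617434 to 8661242, minus strand), the transmembrane ligand known from vessels and somites, read 585, 514 and 452 in WT High, 418, 367 and 313 in WT Mid, then 283, 291 and 233 in WT Neg. ΔHx read 482, 415 and 335, then 404, 319 and 496, then 214, 194 and 294. High lay above Neg in every library of both genotypes, by 0.94 in WT (log2, SE 0.19, adjusted p 0.000578) and 0.81 in ΔHx (adjusted p 0.00208). In ΔHx, Mid overlapped High and was above Neg by 0.79 (adjusted p 0.00383), and in WT the step from Neg to Mid was 0.44 (adjusted p 0.0886). The WT step from Neg to Mid was called only with a replicate block within the genotype (adjusted p 0.0172) and with library weights (adjusted p 0.0215). WT High lay above WT Mid without overlap, by 0.50 (adjusted p 0.0673, not called). That difference was called with totals made equal, with or without Rn45s (adjusted p 0.0252 and 0.0349), and by DESeq2 (adjusted p 0.0485). It was also called with the block within the genotype (adjusted p 0.0118) and with library weights (adjusted p 0.0216).

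Ephb2 (chromosome 4, 136647539 to 136835988, minus strand), a receptor for B-type ephrins, was lower overall. It read 339, 371 and 204 in WT High, 264, 182 and 144 in WT Mid, then 123, 173 and 127 in WT Neg, and 175, 168 and 193, then 103, 129 and 161, then 109, 75.6 and 93.9 in ΔHx. High was above Neg without overlap in both genotypes, by 1.08 in WT (log2, SE 0.26, adjusted p 0.00232) and 0.95 in ΔHx (adjusted p 0.00624). Mid overlapped Neg in both, and neither step to or from Mid was called.

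Efnb1 (X chromosome, 99136130 to 99148991, plus strand), a transmembrane ligand, read 548, 361 and 463 in WT High, 437, 612 and 683 in WT Mid, then 379, 373 and 448 in WT Neg. In ΔHx it read 444, 497 and 429, then 610, 610 and 648, then 549, 488 and 520. Mid had the highest mean in both genotypes. WT Mid was above WT Neg by 0.51 (log2, adjusted p 0.0198) although 1 Mid library, at 437, lay within the Neg range, and ΔHx High was below ΔHx Mid by -0.45 (adjusted p 0.0453). Both calls were lost when some single libraries were left out, the first without WT Mid replicate 2 or 3 or WT Neg replicate 1 or 2 (adjusted p up to 0.0940) and the second without ΔHx High replicate 1 or 3 or any ΔHx Mid library (adjusted p up to 0.124).

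Epha7 (chromosome 4, 28813131 to 28967499, plus strand), a receptor for A-type ephrins, read 273, 211 and 231 in WT High, 203, 143 and 181 in WT Mid, then 143, 120 and 211 in WT Neg. The WT High libraries lay just above the Neg range, and the difference of 0.63 (log2, SE 0.24) was called with an adjusted p of 0.0388. It was not called without WT High replicate 1 or 3 or WT Neg replicate 1 or 2 (adjusted p up to 0.184), nor by edgeR on the recovered reads (adjusted p 0.0528). In ΔHx the High libraries, at 185, 167 and 206, overlapped those of Neg, at 117, 170 and 190, and the difference was 0.25 (adjusted p 0.427). ΔHx Mid read 162, 189 and 123.

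Epha1 and Efna5 had no call between gates in the main fit. Epha1 (chromosome 6, 42358487 to 42373268, minus strand), a receptor for A-type ephrins, ranged from 997 to 1480 over the 18 libraries, and its difference between WT High and Neg was -0.02 (95% interval -0.30 to 0.26). Its exons overlap those of Zyx on the other strand, and since the library method keeps no strand, reads of the 2 genes cannot be told apart there. Zyx itself had group means from 1270 to 1688. Efna5 (chromosome 17, 62604184 to 62881317, minus strand), a lipid-anchored ligand of several EphA receptors, ranged from 331 to 514, and its WT difference between High and Neg was 0.06 (95% interval -0.24 to 0.37). The widest difference between gates for Efna5 was between ΔHx Mid and Neg, -0.35, where the libraries did not overlap (adjusted p 0.0695). It was called with quantile scaling (adjusted p 0.0295), totals made equal (adjusted p 0.0242) and library weights (adjusted p 0.0194). The difference between ΔHx High and Neg, -0.28 (adjusted p 0.126), was called with quantile scaling (adjusted p 0.0380) and library weights (adjusted p 0.0416).

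Deleting the helix moved none of the 10 genes past the threshold in any gate. In High, 0 of 10 were called, where 0.122% of all genes were, and the lowest adjusted p was 0.473. In Mid, 0 of 10 were called (0.401% of all genes, lowest adjusted p 0.610), and in Neg 0 of 10 (0.245%, lowest adjusted p 1.00). The counts at an unadjusted p below 0.05 were 1, 1 and 2, against 7.86%, 7.96% and 4.17% of all genes, and edgeR and DESeq2 on the recovered reads also called 0 in each gate. The log2 differences of ΔHx from WT ran from -0.72 to 0.19 in High, from -0.56 to 0.23 in Mid and from -0.60 to 0.38 in Neg. With 3 libraries a group, the lowest and highest 95% bounds over the 10 genes were -1.27 and 0.60 for High, -1.11 and 0.54 for Mid, then -1.14 and 0.71 for Neg, the lower ones all from Ephb2. Precision differed between genes, and the interval of Epha4 in High was -0.29 to 0.21. The median difference of the 10 genes was -0.01 in High, -0.14 in Mid and 0.05 in Neg, against 0.00, 0.00 and 0.01 over all genes. The tests of whether the helix effect differed between gates also called 0 of 10 in each of the 3 gate pairs (0.0%, 0.0068% and 0.0136% of all genes), with 0 at an unadjusted p below 0.05 (3.15%, 4.32% and 6.13% of all genes) and a lowest unadjusted p of 0.0632, and 0 by edgeR and DESeq2.

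For Epha2 the ΔHx difference was 0.13 in High (95% interval -0.33 to 0.60), -0.34 in Mid (-0.80 to 0.13) and 0.06 in Neg (-0.41 to 0.52). For Efna1 it was 0.05 in High (-0.42 to 0.52), -0.12 in Mid (-0.60 to 0.35) and 0.05 in Neg (-0.42 to 0.53). Both genotypes overlapped in every gate for these 2 genes.

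Ephb2 had the lowest difference in each gate. Its ΔHx libraries lay below all WT libraries in High, at 168 to 193 against 204 to 371, and in Neg, at 75.6 to 109 against 123 to 173, and overlapped them in Mid. The log2 differences were -0.72 in High (95% interval -1.27 to -0.18, unadjusted p 0.0120), -0.56 in Mid (-1.11 to -0.02, unadjusted p 0.0438) and -0.60 in Neg (-1.14 to -0.05, unadjusted p 0.0340), none of which passed the adjustment over all genes in limma. Averaged over the 3 gates, a contrast chosen after these values were seen, the difference was -0.63 (SE 0.15, 95% interval -0.94 to -0.31, adjusted p 0.0565), where 0.843% of all genes were called. The same average was called by edgeR (adjusted p 0.0443), with totals made equal (adjusted p 0.0367), and without ΔHx Mid replicate 3 (adjusted p 0.0405), WT High replicate 3 (adjusted p 0.0163) or WT Mid replicate 3 (adjusted p 0.0260), and it reached an adjusted p of up to 0.133 under other settings. The libraries of the 2 genotypes did not overlap for 2 of the 10 genes in High, Ephb2 and Epha7 (10.9% of all genes), for 0 in Mid (10.9%) and for 2 in Neg, Ephb2 and Efnb1 (12.7%).

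Efnb1 in Neg read 488 to 549 in ΔHx and 373 to 448 in WT, a log2 difference of 0.38 (95% interval 0.04 to 0.71, unadjusted p 0.0292, adjusted p 1.00). The gene is X-linked, and the unsexed pools differed in sex-linked transcripts: Xist was 2433 ± 844 in WT Neg and 1414 ± 561 in ΔHx Neg, and the Y-linked Eif2s3y 298 ± 77.9 and 555 ± 113. The other gates differed in the same direction. Xist had means of 3613 in WT and 1600 in ΔHx in High, and 4861 and 2758 in Mid. Eif2s3y had 261 and 478 in High, and 192 and 387 in Mid. Efnb1 differed by 0.02 in High and 0.13 in Mid. The part of the sex of the pools in the differences of Efnb1 or other genes between genotypes was not tested.

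**Figure D3:**
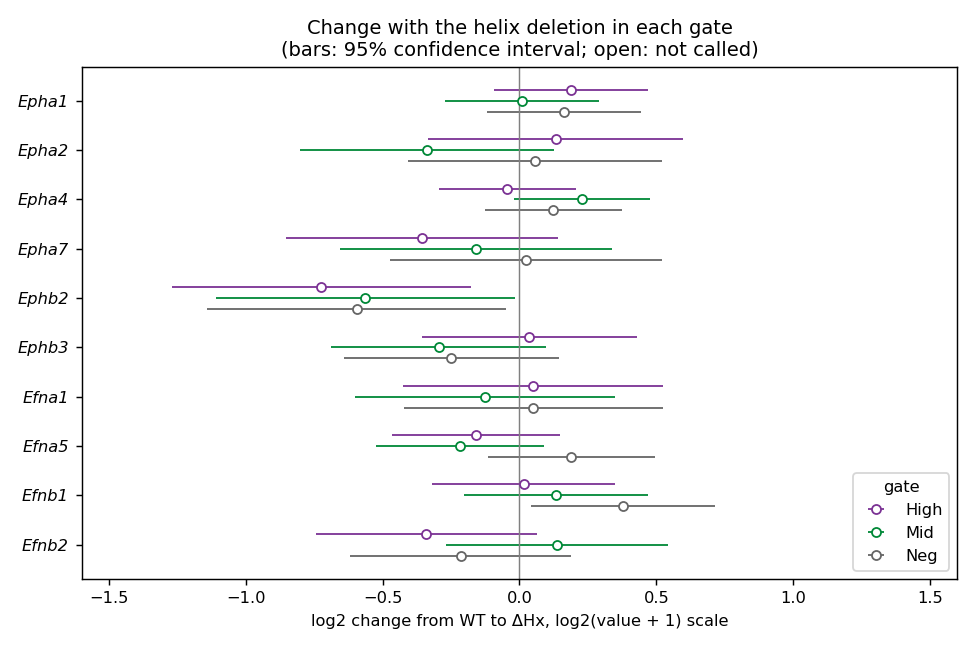
Log2 difference of ΔHx from WT for each of the 10 genes in each gate, with 95% confidence intervals from limma. Ephb2 had the lowest value in each gate, at -0.72, -0.56 and -0.60, and no gene passed the adjusted threshold.

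To compare levels between genes, values were divided by the kilobases of the gene's exons (GENCODE M21). On this per-kilobase scale the ratio of Epha2 to Efna1 was 10.9 ± 3.06 in WT High, 2.79 ± 1.28 in WT Mid and 0.267 ± 0.061 in WT Neg, so the receptor was above the ligand in High and below it in Neg. In ΔHx the ratios were 11.3 ± 1.64, 2.33 ± 0.908 and 0.265 ± 0.037. Among the 22 genes of the family, Epha2 had rank 1 per kilobase in WT High, at 316 ± 27.3, rank 4 in Mid, at 194 ± 57.9, and rank 10 in Neg, at 49.5 ± 9.0. In WT High it was not separated from the next in order beyond their spread, the ligand Efna4 at 307 ± 21.1 and then the receptors Epha1 at 299 ± 39.4 and Ephb4 at 293 ± 55.8. Efna1 moved from rank 13 in WT High, at 30.2 ± 7.14, to rank 9 in Mid, at 73.8 ± 15.3, and rank 4 in Neg, at 187 ± 14.9.

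**Figure D4:**
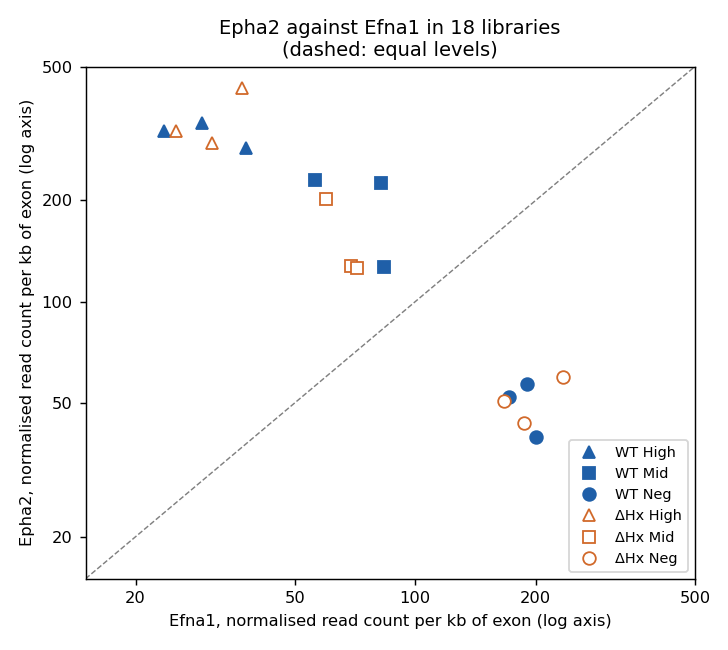
Per-kilobase level of Epha2 (vertical) against that of Efna1 (horizontal) in each of the 18 libraries, in read counts per library size factor and kilobase of exon on log axes, with filled WT and open ΔHx symbols and a dashed line of equal levels. The High and Mid libraries of both genotypes lay on the Epha2 side of the line and the Neg libraries on the Efna1 side.

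Summed per kilobase, the 9 EphA receptors held 716 ± 56.7 in WT High, 731 ± 34.0 in WT Mid and 514 ± 58.4 in WT Neg, and the 5 EphB receptors 589 ± 58.7, 459 ± 20.9 and 475 ± 31.9. The 5 A-type ephrins held 481 ± 29.1, 528 ± 30.7 and 600 ± 22.7, and the 3 B-type ephrins 252 ± 26.1, 264 ± 33.5 and 216 ± 14.8. As a share of the family, A-type ephrins were 23.6% ± 0.955 in WT High and 33.3% ± 1.84 in WT Neg, while EphA receptors were 35.1% ± 2.31 and 28.4% ± 1.72. These sums were not shifts shared by all members of a class. Per kilobase, Efna1 and Efna3 were 30.2 and 15.5 in WT High and 187 and 44.7 in WT Neg, but Efna4 was 307 and 239. Epha2 was 316 in WT High and 49.5 in WT Neg, but Epha4 was 74.1 and 137. The sums of EphA receptors moved by more than their SD when the longest coding transcript was used as the length (871 in place of 716 in WT High), so sums are comparable between gates and less so between classes.

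**Figure D5:**
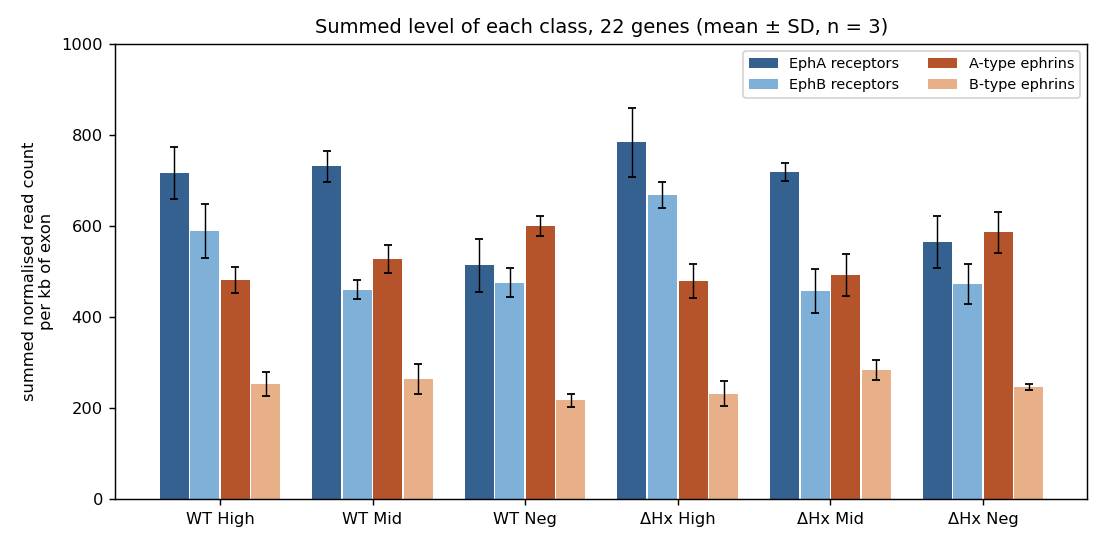
Summed per-kilobase level of the EphA receptors, EphB receptors, A-type ephrins and B-type ephrins in each of the 6 groups, in read counts per library size factor and kilobase of exon, with bars for means and error bars for the SD (n = 3). A-type ephrins were 481 in WT High and 600 in WT Neg, and EphA receptors 716 and 514, with members of a class moving in different directions.

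Of the other 12 genes of the family, 11 passed the filter and Epha6 did not. Between WT High and Neg 5 of the 11 were called, 2 rising and 3 falling, where 44.4% of all genes were called (22.6% rising, 21.8% falling), and in ΔHx 4 were called, 2 in each direction, where 42.6% of all genes were. Ephb1, a receptor for B-type ephrins, was lowest in Mid, with means of 359 ± 118 in WT High, 135 ± 25.8 in WT Mid and 194 ± 13.2 in WT Neg. High was above Neg by 0.83 (adjusted p 0.00212) and above Mid by 1.37 (adjusted p 5.14e-05). The 2 A-type ephrin genes beside Efna1 on the minus strand of chromosome 3 did not follow a single order. Efna3 (89313899 to 89322965) fell towards High with Efna1, from 109 in WT Neg and 101 in Mid to 37.7 in High (log2 of High against Neg -1.47, adjusted p 9.95e-05), whereas Efna4 (89333390 to 89338028) had means of 491, 457 and 383 from High to Neg (log2 0.36, adjusted p 0.0292, not called without WT High replicate 1 or WT Neg replicate 1 or 2). The exons of Ephb1, Ephb4, Efna3 and Efna4 overlap those of a gene on the other strand. Ephb4, a receptor of Efnb2 in vessels, had means of 1362 ± 259 in WT High, 1414 ± 237 in Mid and 1590 ± 139.7 in Neg and no call. Epha5 and Epha8 fell towards High from WT Neg means of 22.8 and 14.5, and were called with adjusted p of 0.0434 and 0.0144, though both calls were lost without single libraries. Epha3, Epha10, Ephb6, Efna2 and Efnb3 were not called in WT, with WT High means of 10.6, 4.70, 164, 52.2 and 140.5. The helix deletion called 0 of the 11 in every gate in limma (0.122%, 0.401% and 0.245% of all genes in High, Mid and Neg) and 0 by edgeR and DESeq2, with 1, 0 and 0 at an unadjusted p below 0.05 (7.86%, 7.96% and 4.17%).

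A list of 54 genes of Eph and ephrin signalling, also chosen with earlier results of these data known, was read in the same fit. Of the 54, 52 passed the filter. The median WT change between High and Neg was 0.14, against 0.02 over all genes, and the median absolute change 0.57 against 0.50. In WT, 15 rose and 8 fell between Neg and High, 9 rose and 5 fell between Neg and Mid, and 6 were higher and 3 lower in High than in Mid. The called totals of 23, 14 and 9 of 52 stand beside 44.4%, 32.9% and 24.4% of all genes. In ΔHx the counts were 14 and 8, 11 and 9, and 8 and 5, beside 42.6%, 34.3% and 25.6% of all genes. Grb7, an SH2 adaptor, was 1382 ± 155 in WT High and 471 ± 57.7 in WT Neg (log2 1.55, adjusted p 6.59e-08), and Sh2d3c, an SH2-domain adaptor, 80.9 ± 7.51 and 22.2 ± 5.48 (log2 1.84, adjusted p 0.00449). Arhgef15, a RhoA exchange factor of the ephexin family, was lower in High, at 34.4 ± 5.74 against 133 ± 25.1 (log2 -1.91, adjusted p 0.000117), as was Kalrn, an exchange factor linked to EphB receptors, at 81.5 ± 35.1 against 193 ± 59.2 (log2 -1.26, adjusted p 0.00264). In Mid against Neg, the largest rises were Stat3 (522 ± 193 against 167 ± 33.3, log2 1.59, adjusted p 0.000171) and Arhgef28 (142 ± 89.9 against 34.7, log2 1.81, adjusted p 0.00672), and the largest falls Arhgef15 (27.4 ± 6.63 in Mid, log2 -2.24, adjusted p 4.32e-05) and Adam12, a metalloprotease (4.68 ± 7.29 against 29.3 ± 22, log2 -3.06, adjusted p 0.0202). Arhgef28 and Adam12 were not called without WT Mid replicate 1 (adjusted p 0.0508 and 0.110). The helix deletion called 0 of the 52 in every gate in limma (0.122%, 0.401% and 0.245% of all genes), with 6, 5 and 2 at an unadjusted p below 0.05 (7.86%, 7.96% and 4.17%). edgeR and DESeq2 called 0 in High and Neg and 1 in Mid, Arhgef28, a RhoA exchange factor named here after its values were seen. Its Mid libraries read 236, 56.4 and 135 in WT but 38.1, 22.4 and 21.7 in ΔHx, without overlap. The log2 difference was -2.16 in limma (adjusted p 0.0544), -2.35 in edgeR (adjusted p 0.0341) and -2.37 in DESeq2 (adjusted p 0.000558). Its highest library was the parietal-rich WT Mid replicate 1, and without that library the limma difference was -1.68 (adjusted p 0.279). limma did call it with the replicate block (adjusted p 0.0270), with a pseudocount of 5 (adjusted p 0.0481), without WT Mid replicate 2 (adjusted p 0.00612) and without WT High replicate 3 (adjusted p 0.0409).

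Across the 18 libraries, which share gates and scaling, the log2 values of Epha2 and Ephb3 had a Pearson r of 0.89, those of Epha2 and Efna1 -0.95, those of Ephb3 and Efna1 -0.91, and those of Efna1 and Efnb2 -0.88. Likeness was searched among the genes that passed the filter, leaving out predicted and clone-named ones. The genes most like Epha2 in this search were Hhex and Lhx1 (r 0.98 for both), transcription factors of the anterior mesendoderm, and Lrig3 (0.97). Those most like Epha4 were Pcdh19, a protocadherin (0.97), Fam178a (0.97) and Tmem132c (0.96), and those most like Ephb3 were Cfc1, a Nodal coreceptor (0.97), Adamts15 and Upp1 (0.96 each). Efna1 was closest to Fubp1, Rcc1 and Exosc1 (0.99 each), Efnb2 to Ovol2, Capns1 (0.91 each) and Arf3 (0.89), and Ephb2 to Galnt10 (0.89), Extl3 (0.88) and Ptms (0.87). Epha1 and Efna5, without a call between gates in the main fit, had no closer gene in this search than Slc22a18 (0.70) and Timp2 (0.80). Efnb1 and Epha7 had none closer than Galm (0.83) and Cxcl16 (0.82). These correlations are descriptions of 18 libraries in 6 groups and were not tested.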

How the data were processed

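RNA from 18 libraries of sorted cells (about 2500 to 5000 cells sorted, RNA equal to 1000 cells, SMART-Seq2, single-end reads of 75 bases, no strand kept) was deposited by the authors as a table of signal values, 1 row for each of 24498 genes and 5 counter rows, which were left out. The submitters' processing notes name STAR 2.5.2a, HTSeq 0.6.1, DESeq, DESeq2 and mm10, without their roles. Each value in the deposited signal table is a read count divided by 1 size factor per library: all 441054 values gave whole reads within 1e-06 (100% of values), with 1 read worth 0.825 to 1.37. As a share of the total over gene and counter rows, the counter rows held 7.17% to 12.1% for no feature and 37.7% to 41.3% for reads placed more than once.

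Groups were taken from the labels. limma 3.58.1 (R 4.3.3) was fitted to log2(value + 1) with the 6 group means over all 18 libraries and a variance trend, for the 14711 genes that reached 10 in 3 or more libraries. P-values were two-sided and Benjamini-Hochberg adjusted over all genes within each contrast, and called below 0.05. Fold changes on this scale understate changes of low genes. edgeR 4.0.16 (quasi-likelihood, on the recovered reads) and DESeq2 1.42.0 were alternatives and called 6468 and 6782 genes between WT High and Neg, against 6532 by limma. The fits were tested on simulated data. The named genes were all 10 listed genes, the family genes that passed the filter, the 2 largest rises and falls of the signalling list in WT High and WT Mid against Neg, and the 3 genes most like each listed gene. The members and lists were chosen with earlier results of these data known. Protein sequences were not used here.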

Additional observations from a re-analysis of the deposited data

How the results depend on the processing

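Over the 10 genes and 12 contrasts, 32 of 120 gene and contrast pairs were called and 24 of those 32 kept their call under every alternative run: the pseudocount, the filter on low values, quantile and equal-total scaling, robust variances, library weights, the compared groups alone, the replicate block, edgeR, DESeq2 and each library left out. Of 2520 values under alternatives, 2455 kept their side of the threshold, 45 lost and 20 gained a call, and 0 reversed a called sign. The numbers called between WT Mid and Neg (5) were 3 with quantile scaling, 2 with equal totals, 3 with the compared groups alone and 2 to 4 with a library left out, 3 without WT Mid replicate 1 and 2 without WT Neg replicate 2. Between WT High and Mid, 8 genes were called with library weights (4 in the main fit). The shares of all genes called under these settings are not given, so the changed counts are not read as results about the 10 genes. In Mid, library weights called 1 gene for the helix deletion, Epha2 (log2 -0.65, adjusted p 0.0469). For the average helix effect the count was 1 with equal totals and 1 with edgeR, and 0 to 1 with a library left out, Ephb2 in each case. Relative to the main scaling, equal totals shifted the median of all genes by -0.16 between WT Mid and Neg, 0.12 between WT High and Mid and 0.13 between ΔHx High and Mid, equal totals without Rn45s by 0.11 and 0.10 between High and Neg in WT and ΔHx, and quantile scaling by -0.11 between WT High and Neg. With equal totals, 6 calls were lost: Epha7 between WT High and Neg (adjusted p 0.0852), Epha4, Ephb3 and Efnb1 between WT Mid and Neg (0.172, 0.0798 and 0.201), Ephb3 between ΔHx Mid and Neg (0.0643) and Efnb1 between ΔHx High and Mid (0.287). Quantile scaling lost Epha7 (0.257), Ephb3 in WT and ΔHx (0.0712 and 0.116) and Efnb1 in WT (0.0669) in the same contrasts, and Ephb2 between ΔHx High and Neg (0.0795). The cause was not tested.

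Same-numbered libraries of a genotype deviated from their group means with correlations of 0.0156 to 0.291 over genes, and unlike-numbered ones with -0.205 to 0.0356. In every pair of gates of a genotype, the lowest same-numbered value lay above the highest unlike-numbered one. Between genotypes in the same gate, same-numbered libraries had correlations of -0.171 to 0.0820. The labels do not say that equal numbers share a day or litter, so the main fit did not take them as pairs. No call other than that of Efnb1 between ΔHx High and Mid (adjusted p 0.0513) was lost with the replicate block. This block took equal numbers as shared across genotypes as well as gates. With it the counts were 7, 5 and 4 for High against Neg, Mid against Neg and High against Mid in WT, 6, 5 and 4 in ΔHx and 0 for the helix deletion in each gate. A block on the number within a genotype also called Efnb2 between WT Mid and Neg (adjusted p 0.0172) and between WT High and Mid (adjusted p 0.0118). Depth limits the low genes: Efna1 rested on 36 reads in its lowest library, and Epha5 and Epha8 on fewer.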
